A study of Arabidopsis thaliana with 12 samples.

Results

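The immune mitogen-activated protein kinase (MAP kinase) cascade of Arabidopsis thaliana and the receptor that watches over it were followed as 10 genes, taken by locus identifier from 34262 genes in the count table. The 10 were the kinase kinase kinase MEKK1, the kinase kinases MKK1, MKK2, MKK4 and MKK5, the MAP kinases MPK3, MPK4, MPK6 and MPK11, and the immune receptor SUMM2. RNA sequencing had been done on rosette leaves of 3-week-old plants, grown untreated in soil at 22 °C with 16 h of light, in 4 genotypes with 3 libraries each. The genotypes were ka120 pad4, ka120 ndr1, ka120 and the wild type Col-0, all in the Col-0 background, so that 9 of the 12 libraries carried ka120. KA120 is an importin-beta type nuclear transport receptor, PAD4 is needed for signalling by immune receptors of the TIR class, and NDR1 is needed by several receptors of the coiled-coil class. No source used here names the alleles or the number of plants behind a library, and single pad4 and ndr1 mutants were not analysed here, so pad4 and ndr1 are seen only on top of ka120. Whether the 3 libraries of a genotype are separate plants or pools is likewise unstated, and p-values measure the spread between these libraries, which may be technical.

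In a MAP kinase cascade a kinase kinase kinase phosphorylates a kinase kinase, which phosphorylates the MAP kinase. Cell surface receptors that detect microbes switch on 2 such routes in Arabidopsis leaves, a route through MKK4 and MKK5 to MPK3 and MPK6, and a route from MEKK1 through MKK1 and MKK2 to MPK4. Loss of the MEKK1 to MPK4 route is known to trigger the coiled-coil receptor SUMM2 and autoimmunity, so SUMM2 is said to guard it. Most of this signalling is set by phosphorylation, which transcript counts do not measure.

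Total counts ran from 68436911 to 85884840 per library. The transcript at AT3G08960, taken as KA120 from background knowledge, had 3.64 to 6.03 CPM (counts scaled to the effective library size and expressed per 1e+06) in the 9 mutant libraries and 24.2 to 33.0 CPM in Col-0. NDR1 had 0, 12 and 8 counts in the ka120 ndr1 libraries and 320 to 346 counts in Col-0. PAD4 stood at 7.73 to 19.1 CPM in ka120 pad4, 42.2 to 64.4 CPM in ka120 ndr1, 54.6 to 106.6 CPM in ka120 and 4.602 to 5.54 CPM in Col-0. It was called lower in ka120 pad4 than in ka120 (log2 fold change -2.75 ± 0.32, adjusted p = 8.53e-04 by edgeR's quasi-likelihood test), without overlap. The 4 mesophyll markers (RBCS1A, LHCB1.3, RCA and LHCA1) were detected in every genotype. Their summed level was 36820 to 45260 CPM in ka120 pad4, 36410 to 38360 CPM in ka120 ndr1, 31120 to 35420 CPM in ka120 and 57570 to 61180 CPM in Col-0, and 4 of 4 were called lower in ka120 than in Col-0. Another 2 genes, phloem markers, summed to 123.6 to 143.0 CPM in ka120 and 248 to 291 CPM in Col-0, and 3 guard cell markers to 41.3 to 49.3 CPM in ka120 and 51.4 to 56.3 CPM in Col-0, with SUC2 of the phloem and FAMA and HT1 of guard cells called lower. The other guard cell marker, SPCH, was not lower (log2 fold change 0.12 ± 0.13 in ka120 against Col-0, adjusted p = 0.432). The 3 flower markers summed to 3.58 to 7.52 CPM in ka120 and 1.304 to 2.77 CPM in Col-0, with AG and PI called higher. The 4 root markers summed to 0.820 to 1.35 CPM in ka120 and 0.354 to 0.766 CPM in Col-0, with 1 of them at 0 in every library and WOX5 and CASP1 called higher. The root marker COBL9 had a negative log2 fold change without a call (-1.79 ± 1.25, adjusted p = 0.248). The summed level of 2 meristem markers was 3.44 to 5.06 CPM in ka120 and 3.84 to 5.16 CPM in Col-0. In bulk tissue fewer cells of a type and less RNA per cell cannot be told apart, and the part of these shifts in the results below was not tested.

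In ka120 the transcripts of 7 of the 10 genes rose and 0 fell against Col-0, by edgeR's quasi-likelihood test with Benjamini-Hochberg adjustment over all 22351 tested genes and a threshold of 0.05. Over all tested genes 54.9% were called, 28.0% higher and 27.0% lower. The largest rise was in MPK11, a close relative of MPK4, at 22.8-fold, followed by MKK1 at 4.08-fold, MKK2 at 2.60-fold and MPK3 at 2.42-fold. MKK4, MEKK1 and MPK4 rose by less than these. MKK5, MPK6 and SUMM2 were not called. The median log2 fold change of the 10 was 0.69, against 0.02 over all tested genes.

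**Figure D1:**
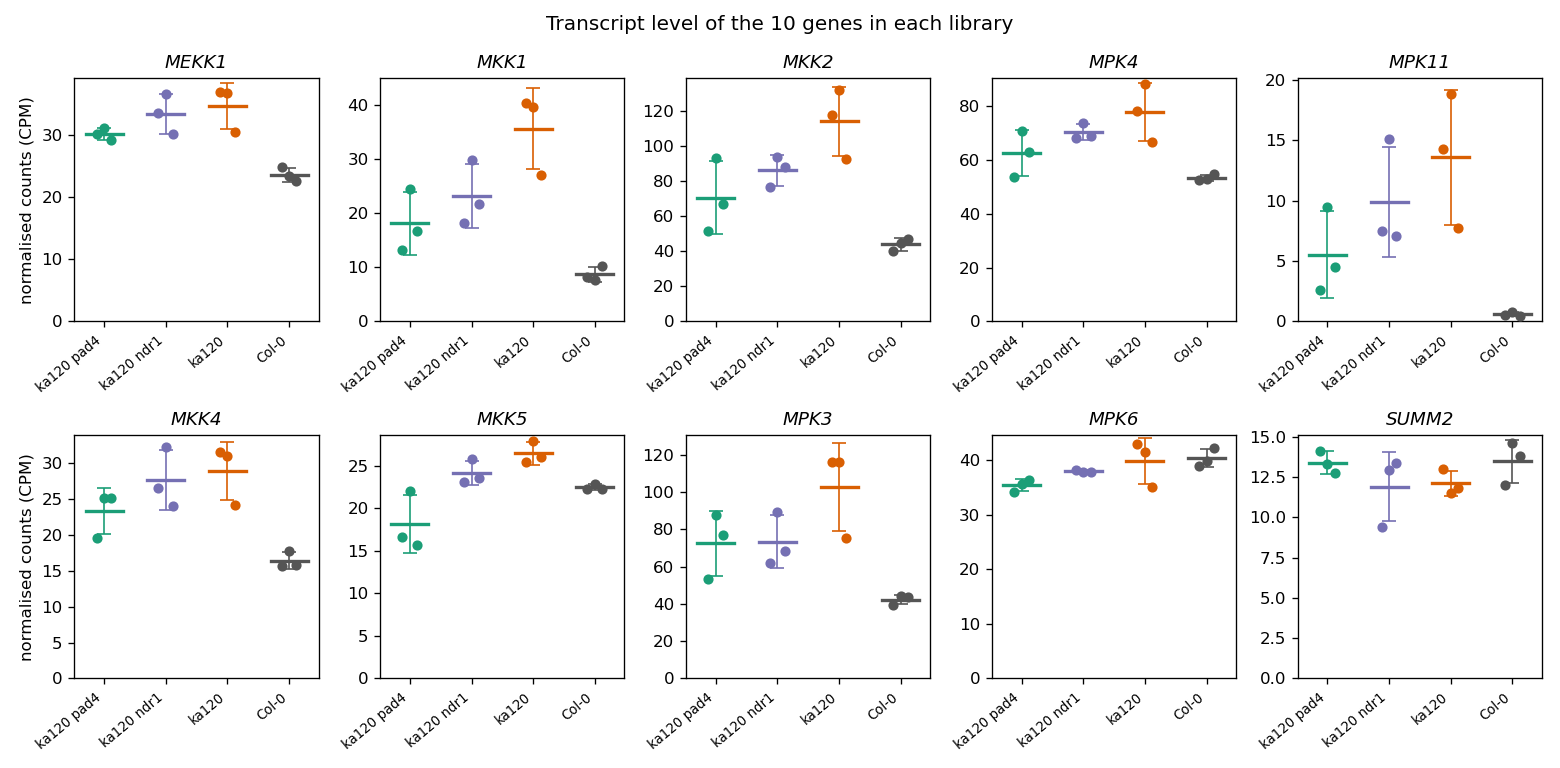
Transcript level (normalised counts, CPM, linear axis from 0) of the 10 genes in the 4 genotypes. Points are libraries, horizontal lines are means of 3 and error bars are SD; the 3 ka120 libraries of MPK11 lie at 7.70 to 18.8 CPM and the Col-0 libraries at 0.468 to 0.759 CPM, while SUMM2 lies between 9.42 and 14.6 CPM in all 12 libraries.

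MEKK1 (AT4G08500, chromosome 4, 5403671 to 5407320, minus strand, TAIR10.1) heads the MPK4 route. It had 37.0, 36.8 and 30.6 CPM in the ka120 libraries, against 24.9, 23.4 and 22.7 CPM in Col-0. No ka120 library was as low as the highest Col-0 library. The log2 fold change was 0.56 ± 0.09 (approximate SE), with adjusted p = 2.30e-04.

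MKK1 (AT4G26070, chromosome 4, 13217475 to 13219936, plus strand) and MKK2 (AT4G29810, chromosome 4, 14592963 to 14595384, minus strand) act together below MEKK1. MKK1 had 40.4, 39.7 and 27.1 CPM in ka120, against 8.17, 7.76 and 10.3 CPM in Col-0. MKK2 had 118.0, 131.9 and 92.7 CPM in ka120, against 40.1, 44.6 and 47.2 CPM in Col-0. For both genes the lowest ka120 library lay well above the highest Col-0 library. MKK1 rose by 2.03 ± 0.25 on the log2 scale (adjusted p = 2.24e-05) and MKK2 by 1.38 ± 0.19 (adjusted p = 4.94e-05).

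MPK4 (AT4G01370, chromosome 4, 566917 to 570299, plus strand) is the MAP kinase of this route and in its absence plants are dwarfed and autoimmune. It had 78.2, 88.1 and 66.6 CPM in ka120, against 52.5, 52.9 and 54.6 CPM in Col-0, a log2 fold change of 0.54 ± 0.11 (adjusted p = 9.11e-04). MPK11 (AT1G01560, chromosome 1, 202103 to 204440, plus strand) is the MAP kinase most like MPK4 and is activated by microbial patterns. It had 14.3, 18.8 and 7.70 CPM in ka120 and 0.570, 0.759 and 0.468 CPM in Col-0, from raw counts of 35, 45 and 33 in the Col-0 libraries. MPK11 was thus at low counts in Col-0 and above all of them in every ka120 library, with ka120 replicate 3 well below the other two. Its log2 fold change was 4.51 ± 0.55 (adjusted p = 2.23e-05), larger than that of 97.7% of tested genes.

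On the other route, MKK4 (AT1G51660, chromosome 1, 19154323 to 19156338, plus strand) and MKK5 (AT3G21220, chromosome 3, 7445604 to 7448498, plus strand) both phosphorylate MPK3 and MPK6. MKK4 had 31.5, 31.0 and 24.2 CPM in ka120, against 15.7, 17.8 and 15.8 CPM in Col-0, and rose by 0.82 ± 0.14 on the log2 scale (adjusted p = 2.97e-04). MKK5 had 25.4, 27.9 and 26.1 CPM in ka120, against 22.3, 22.9 and 22.3 CPM in Col-0. Every ka120 library was above every Col-0 library for MKK5, but the log2 fold change of 0.24 ± 0.11 did not pass (adjusted p = 0.0868). It passed in a fit to ka120 and Col-0 alone (0.24, adjusted p = 0.0162) and without TMM scaling between libraries (0.565, adjusted p = 0.00110).

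MPK3 (AT3G45640, chromosome 3, 16756571 to 16758874, plus strand) and MPK6 (AT2G43790, chromosome 2, 18138246 to 18140988, plus strand) are the overlapping MAP kinases of this route. MPK3 had 116.1, 116.4 and 75.6 CPM in ka120, against 39.5, 44.0 and 43.5 CPM in Col-0, and rose by 1.28 ± 0.20 on the log2 scale (adjusted p = 1.63e-04). MPK6 had 43.0, 41.5 and 35.1 CPM in ka120 and 39.0, 39.9 and 42.3 CPM in Col-0. The MPK6 libraries overlapped, and its log2 fold change was -0.02 ± 0.07 (adjusted p = 0.845). Without TMM scaling the MPK6 value was 0.31 (adjusted p = 0.00554), while the median of all tested genes moved by 0.329 under that scaling.

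SUMM2 (AT1G12280, chromosome 1, 4174875 to 4178021, minus strand) had 12.97, 11.5 and 11.8 CPM in ka120, against 11.99, 14.6 and 13.8 CPM in Col-0. The libraries overlapped. The log2 fold change was -0.16 ± 0.13 (adjusted p = 0.321), and 0.18 (adjusted p = 0.239) without TMM scaling. Over the 4 genotypes SUMM2 had the lowest F statistic of the 10 genes, 1.13, against 23.6 for MPK11.

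Per kilobase of annotated exon, the Col-0 levels ran, from high to low, in the order MKK2, MPK6, MPK3, MPK4, MKK5, MEKK1, MKK4, SUMM2, MKK1 and MPK11. Their means ran from 26.2 ± 2.16 CPM per kilobase for MKK2 to 0.324 ± 0.0798 CPM per kilobase for MPK11 (SD, n = 3). The libraries of MKK2 and MPK6, of MPK6 and MPK3, of MKK5 and MEKK1, of MEKK1 and MKK4, and of SUMM2 and MKK1 overlapped. In ka120 the order was MKK2, MPK3, MPK4, MPK6, MKK1, MKK4, MEKK1, MKK5, MPK11 and SUMM2. There the libraries of MKK2 and MPK3, of MPK4 and MPK6, of MPK6 and MKK1, of MKK1 and MKK4, and of MKK4 and MEKK1 overlapped. MKK1 stood at 19.0 ± 3.99 CPM per kilobase in ka120 and 4.66 ± 0.725 CPM per kilobase in Col-0, and MPK11 at 7.36 ± 3.02 CPM per kilobase in ka120. SUMM2 at 4.30 ± 0.274 CPM per kilobase was the lowest of the 10 in ka120, its highest library at 4.61 and the lowest MPK11 library at 4.17, so these neighbours overlapped.

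Close relatives with overlapping roles moved unequally. For each of 4 pairs the log2 ratio of their CPM within a library (prior count 2), in which the scaling between libraries cancels apart from the prior count, was compared between the 9 libraries that carry ka120 and the 3 of Col-0 with a two-sided exact permutation test. All 4 pairs gave the smallest p that the 220 splits allow, 0.00455, which Benjamini-Hochberg adjustment over these 4 equal values leaves unchanged. The test takes libraries of 3 different genotypes as a single group, so its p does not apply to ka120 alone against Col-0. Other pairs of genes were not tested, so the share of pairs that would reach this p is unknown. Separation was common among single genes. In ka120 against Col-0, 32.3% of tested genes had every library higher and 31% every library lower. MPK4 exceeded MPK11 by a mean log2 ratio of 2.60 ± 0.46 in ka120, against 6.44 ± 0.36 in Col-0 (SD, n = 3 each). MPK3 over MPK6 stood at 1.34 ± 0.21 in ka120 and 0.07 ± 0.06 in Col-0. MKK4 over MKK5 stood at 0.12 ± 0.21 in ka120 and -0.45 ± 0.08 in Col-0, so that the more abundant of this pair by CPM differed between the genotypes on average, with 1 of the ka120 libraries at -0.11. MKK1 over MKK2 stood at -1.68 ± 0.12 in ka120 and -2.34 ± 0.17 in Col-0. In ka120 pad4 and ka120 ndr1 each mean ratio also lay on the ka120 side of Col-0. MKK4 over MKK5 was 0.37 ± 0.28 in ka120 pad4 and 0.18 ± 0.15 in ka120 ndr1. The longest run of identical bases between the exons of a pair was 40 bases, in MKK4 and MKK5, below the read length of 150 bases.

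**Figure D2:**
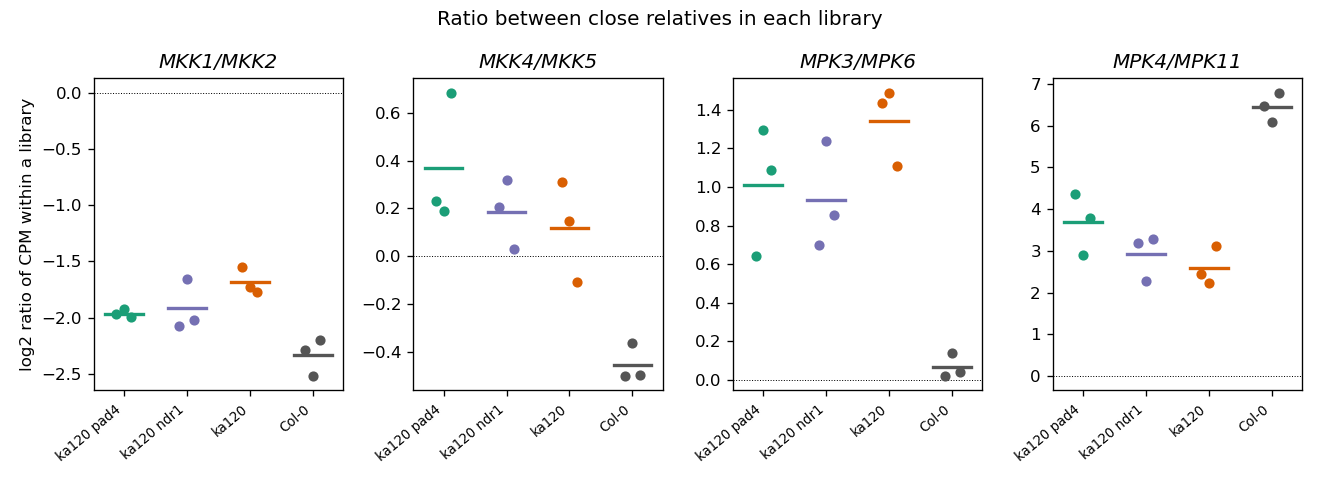
Log2 ratio of the CPM of 2 close relatives within each library, for 4 pairs in the 4 genotypes. Points are libraries and lines are means of 3; in every pair the 9 libraries with ka120 lie on the same side of the 3 Col-0 libraries, without overlap.

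The bases just before the gene starts are shown for the 4 genes that rose most. The 250 bases before the annotated start were searched on both strands for TTGAC, the core of the W-box bound by WRKY factors of immunity, and matches are in capitals (a match on the other strand reads GTCAA). Sequences are from RefSeq TAIR10.1, written 5′ to 3′ on the strand of the gene, at chr1:201853-202102 (plus) for MPK11, chr4:13217225-13217474 (plus) for MKK1, chr4:14595385-14595634 (minus) for MKK2 and chr3:16756321-16756570 (plus) for MPK3.
MPK11: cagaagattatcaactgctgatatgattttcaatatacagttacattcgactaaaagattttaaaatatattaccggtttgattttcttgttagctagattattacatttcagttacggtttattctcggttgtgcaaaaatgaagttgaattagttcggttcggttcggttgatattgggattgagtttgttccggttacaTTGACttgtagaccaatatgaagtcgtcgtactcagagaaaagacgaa
MKK1: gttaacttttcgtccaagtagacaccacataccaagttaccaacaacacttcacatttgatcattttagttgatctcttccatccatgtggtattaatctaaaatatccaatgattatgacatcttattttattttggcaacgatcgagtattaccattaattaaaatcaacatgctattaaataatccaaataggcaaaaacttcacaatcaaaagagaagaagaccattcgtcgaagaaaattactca
MKK2: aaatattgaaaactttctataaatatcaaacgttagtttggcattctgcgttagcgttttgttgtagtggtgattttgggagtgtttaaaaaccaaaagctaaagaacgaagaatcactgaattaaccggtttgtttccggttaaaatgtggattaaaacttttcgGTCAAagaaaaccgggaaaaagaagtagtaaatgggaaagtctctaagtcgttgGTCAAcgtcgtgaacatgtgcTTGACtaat
MPK3: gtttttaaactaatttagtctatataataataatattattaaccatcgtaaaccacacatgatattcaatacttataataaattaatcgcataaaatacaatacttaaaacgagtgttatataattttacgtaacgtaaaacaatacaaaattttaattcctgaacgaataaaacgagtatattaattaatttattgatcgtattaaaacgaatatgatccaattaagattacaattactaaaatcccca
MPK11 held 1 match, which began 48 bases before the start, and MKK2 held 3 between 84 and 9 bases before it. MKK1 and MPK3 held 0. Of the 10 genes 4 held at least 1 match, the other two being MPK4 with 1 and MPK6 with 3, against 44.9% of the same windows of 27443 protein-coding genes. MPK6, which was not called in ka120, is thus among the genes with a match. A missing match says only that these letters are not in this window.

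Adding pad4 to ka120 gave lower values for 9 of the 10 genes, and 3 of them fell: MKK1, MKK2 and MKK5. Over all tested genes 18.2% were called in this comparison, 9.83% higher and 8.39% lower. The median log2 fold change was -0.41 for the 10 and 0.004 over all tested genes. MKK1 had 13.2, 24.5 and 16.8 CPM in ka120 pad4, against 40.4, 39.7 and 27.1 CPM in ka120, and fell by 0.98 ± 0.24 on the log2 scale (adjusted p = 0.0148). The ka120 pad4 libraries of MKK1 were all below those of ka120. MKK2 had 51.7, 93.1 and 67.0 CPM in ka120 pad4, against 118.0, 131.9 and 92.7 CPM in ka120, and fell by 0.69 ± 0.18 (adjusted p = 0.0209), with an overlap between the highest ka120 pad4 and the lowest ka120 library.

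MKK5 was called here and its relative MKK4 was not. It had 16.7, 22.0 and 15.7 CPM in ka120 pad4, against 25.4, 27.9 and 26.1 CPM in ka120, and fell by 0.55 ± 0.11 on the log2 scale (adjusted p = 0.00600) without overlap. MKK4 had 19.6, 25.1 and 25.2 CPM in ka120 pad4, with a log2 fold change of -0.31 ± 0.14 against ka120 (adjusted p = 0.141). That the fall of MKK5 differs from the value of MKK4 was not tested.

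MPK11 had the largest difference but not a call: 2.57, 9.51 and 4.50 CPM in ka120 pad4, against 14.3, 18.8 and 7.70 CPM in ka120, with a log2 fold change of -1.298 ± 0.45 (adjusted p = 0.0645). MPK4 (-0.32 ± 0.11, adjusted p = 0.0579), MPK3 (-0.50 ± 0.20, adjusted p = 0.102), MEKK1 (-0.20 ± 0.09, adjusted p = 0.146) and MPK6 (-0.17 ± 0.07, adjusted p = 0.140) did not pass either. SUMM2 was the gene with a positive value, 0.15 ± 0.13 (adjusted p = 0.475). Unadjusted, 9 of the 10 had p under 0.05 by edgeR, in tests that share the same ka120 libraries. The share of all tested genes under this unadjusted threshold was not counted, here or in the later comparisons.

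These calls turned on individual libraries and settings. With DESeq2 the count was 5, and MKK2 was not called in a fit to these 2 genotypes alone (adjusted p = 0.0748). Without ka120 replicate 3, 9 of the 10 genes were called. Without ka120 replicate 1 or 2, or without ka120 pad4 replicate 1 or 3, the count was 1, the call of MKK5. Without ka120 pad4 replicate 2 it was 6. In ka120, replicate 3 was the lowest of the 3 libraries for 8 of the 10 genes, against 38.4% of all tested genes, and in ka120 pad4 replicate 2 was the highest for 7 of the 10, against 37.0% of all tested genes. In ka120 ndr1, replicate 2 was the highest for 8 of the 10, against 35.8% of all tested genes. The cause of this was not tested.

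Adding ndr1 to ka120 gave lower values for all 10 genes and 0 calls by edgeR, with 3 genes at an unadjusted p under 0.05 and 1 call, MKK1, by DESeq2. Over all tested genes 5.94% were called, 3.20% higher and 2.74% lower. The median log2 fold change was -0.14 for the 10 and -8.9e-05 over all tested genes. With a library left out, the values of MEKK1, MKK4 and SUMM2 reached 0.0104, 0.0207 and 0.118, so that all 10 were lower depends on individual libraries. The largest difference was in MKK1, with 18.2, 29.8 and 21.7 CPM in ka120 ndr1 against 40.4, 39.7 and 27.1 CPM in ka120, and a log2 fold change of -0.62 ± 0.24 (adjusted p = 0.137). MPK3 had 62.1, 89.3 and 68.7 CPM in ka120 ndr1 (-0.49 ± 0.20 against ka120, adjusted p = 0.159) and MPK11 7.46, 15.1 and 7.06 CPM (-0.46 ± 0.44, adjusted p = 0.577). The libraries of ka120 ndr1 and ka120 overlapped for each of these 3 genes. Without ka120 replicate 3, MPK3 was called (-0.67, adjusted p = 0.0414).

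**Figure D3:**
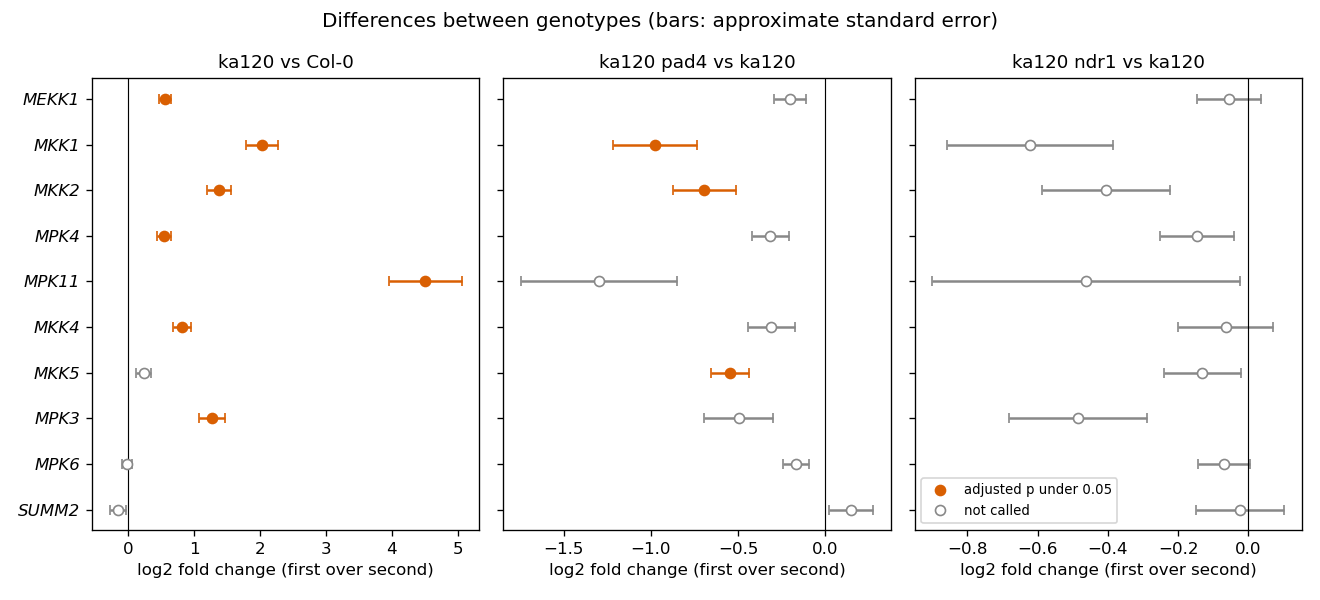
Log2 fold change of each gene in ka120 against Col-0 (left), ka120 pad4 against ka120 (middle) and ka120 ndr1 against ka120 (right), each panel with its own scale. Filled points have an adjusted p under 0.05 and bars are the approximate standard error; 7 genes are filled on the left, 3 in the middle and 0 on the right.

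Against Col-0, both double mutants still had raised levels of most of these transcripts. In ka120 pad4 6 genes rose and MKK5 fell (42.0% of all tested genes were called, 21.6% higher and 20.3% lower). In ka120 ndr1 7 rose and 0 fell (48.4% of all tested genes were called, 24.9% higher and 23.5% lower). MPK11 rose by 3.21 ± 0.54 on the log2 scale in ka120 pad4 (adjusted p = 5.01e-04) and by 4.05 ± 0.55 in ka120 ndr1 (adjusted p = 7.19e-05). MKK1 rose by 1.05 ± 0.24 in ka120 pad4 and by 1.41 ± 0.24 in ka120 ndr1, and MKK2 by 0.68 ± 0.18 in ka120 pad4 and by 0.97 ± 0.18 in ka120 ndr1.

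For MPK3 the double mutants were close to each other, at 0.78 ± 0.20 in ka120 pad4 and 0.79 ± 0.20 in ka120 ndr1. MPK4 was called against Col-0 in ka120 ndr1 (0.40 ± 0.11, adjusted p = 0.00825) and not in ka120 pad4 (0.23 ± 0.11, adjusted p = 0.106), where it was called without TMM scaling (0.475, adjusted p = 0.00468). MKK5 in ka120 pad4 was below Col-0, where it had 22.3 to 22.9 CPM, in all 3 libraries, and fell by 0.31 ± 0.11 (adjusted p = 0.0390). That call ended in a fit to these 2 genotypes alone (adjusted p = 0.0910), without TMM scaling (adjusted p = 0.693), and without any 1 of the Col-0 replicates or ka120 pad4 replicate 1 or 3 (adjusted p from 0.0768 to 0.161). SUMM2 was at -0.01 ± 0.13 in ka120 pad4 (adjusted p = 0.971) and -0.18 ± 0.13 in ka120 ndr1 (adjusted p = 0.267). These comparisons share the Col-0 libraries, as those above share the ka120 libraries.

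For the 7 genes that rose in ka120, the excess of mean CPM over Col-0 in ka120 pad4 was 34.9% (MKK1) to 58.9% (MEKK1) of that in ka120. In ka120 ndr1 it was 51.3% (MPK3) to 89.9% (MKK4). The 7 genes were chosen by the same ka120 difference that divides these shares, which favours low shares. Shares of other genes raised in ka120 were not computed. For MPK11 it was 37.9% in ka120 pad4 and 71.5% in ka120 ndr1. Without ka120 pad4 replicate 2 the share in ka120 pad4 was 23.2% for MKK1, 21.9% for MKK2, 20.2% for MPK4 and 22.6% for MPK11, against 34.9%, 37.9%, 37.3% and 37.9% with all libraries. Without ka120 pad4 replicate 1 it was higher for these genes, at 44.1%, 51.4%, 55.3% and 49.3%. With a library left out, the share in ka120 ndr1 ran from 51.3% to 89.3% for MPK11 and from 71.6% to 104% for MKK4. The direct comparison of ka120 pad4 with ka120 ndr1 called 0 of the 10 genes by edgeR (2.39% of all tested genes were called, 1.51% higher and 0.886% lower), with 1 gene at an unadjusted p under 0.05. That gene was MKK5, at -0.41 ± 0.11 (adjusted p = 0.0697), which DESeq2 called. The other log2 fold changes ran from -0.84 ± 0.45 for MPK11 (adjusted p = 0.358) to 0.17 ± 0.13 for SUMM2 (adjusted p = 0.525).

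Neighbours of the cascade genes on the chromosome also changed. MEKK2 (AT4G08480) and MEKK3 (AT4G08470) lie beside MEKK1 as tandem copies, and MEKK2 is known to be needed for SUMM2 autoimmunity. MEKK3 had 69.9 to 96.0 CPM in ka120 and 17.2 to 19.9 CPM in Col-0, a rise of 2.18 ± 0.17 on the log2 scale (adjusted p = 6.00e-07), while MEKK2 rose by 0.67 ± 0.09 (adjusted p = 6.00e-05). MEKK3 fell in ka120 pad4 (-0.79 ± 0.16, adjusted p = 0.00643) and in ka120 ndr1 (-0.72 ± 0.16, adjusted p = 0.0280) against ka120. MEKK2 fell in ka120 pad4 (-0.38 ± 0.09, adjusted p = 0.0138) and was at -0.25 ± 0.09 in ka120 ndr1 (adjusted p = 0.126), against ka120. The longest run of identical bases between the exons of MEKK1 and MEKK2 was 87 bases, also below the read length of 150 bases.

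AT1G12290 and RFL1, relatives of SUMM2 on chromosome 1, rose in ka120. AT1G12290, which overlaps SUMM2 by 24 exon bases on the same strand, had 8.52 to 12.2 CPM in ka120 and 2.39 to 3.40 CPM in Col-0 (1.82 ± 0.17, adjusted p = 2.32e-06). RFL1 rose by 1.18 ± 0.24 (adjusted p = 0.00136).

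Lists of other genes of the pathway were counted in the same way for ka120 against Col-0, where 54.9% of all tested genes were called and 28.0% were called higher. Of 16 other MAP kinases 5 rose and 7 fell, with a median log2 fold change of -0.06. MPK1 (1.95 ± 0.11) and MPK2 (1.09 ± 0.12) rose, and MPK12, a kinase of guard cells (-0.72 ± 0.09), and MPK8 (-0.51 ± 0.06) fell. Among 4 tested of 6 other kinase kinases, MKK3 rose by 0.64 ± 0.11 and MKK7 fell by 2.66 ± 0.99 from low counts. Of 17 other kinase kinase kinases 4 rose and 4 fell, with falls in MAPKKK14 (-1.19 ± 0.15) and MAPKKK13 (-0.67 ± 0.20).

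Upstream, 7 of 12 receptor-like cytoplasmic kinases and scaffolds rose and 3 fell, where 28.0% of all tested genes were called higher and 27.0% lower. PCRK1, a kinase below pattern receptors, had 57.2 to 71.5 CPM in ka120 and 7.76 to 8.45 CPM in Col-0 (3.00 ± 0.16), and BIK1, which links receptors to the oxidative burst, rose by 1.07 ± 0.09. The scaffold genes RACK1C (-0.44 ± 0.06) and RACK1B (-0.29 ± 0.06) fell. Among 11 substrates of MPK3 and MPK6, 4 rose and 0 fell, a share called below the 54.9% of all tested genes. Those that rose include the zinc finger gene TZF9 (1.67 ± 0.09) and WRKY33, the regulator of camalexin synthesis (2.23 ± 0.27). The median of the 11 was 0.60.

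Of 10 phosphatases that can switch MAP kinases off, 3 rose and 0 fell, a share close to the 28.0% called higher among all tested genes, with MKP1 (0.40 ± 0.06) and IBR5 (0.38 ± 0.08) having the smallest adjusted p and a list median of 0.22. Among 7 genes of the MPK4 branch and partners of SUMM2, 3 rose and 1 fell, a share called close to the 54.9% of all tested genes. The malectin-like kinases LET1 (0.66 ± 0.12) and LET2 (0.41 ± 0.11) rose, and ASR3, a transcriptional repressor phosphorylated by MPK4, fell by 0.78 ± 0.16. CRCK3, the kinase through which SUMM2 senses loss of MPK4 activity, had 0.27 ± 0.14 (adjusted p = 0.131), and the MPK4 substrate PAT1 0.00 ± 0.14 (adjusted p = 0.986). These last 2 were chosen after their values were seen.

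**Figure D4:**
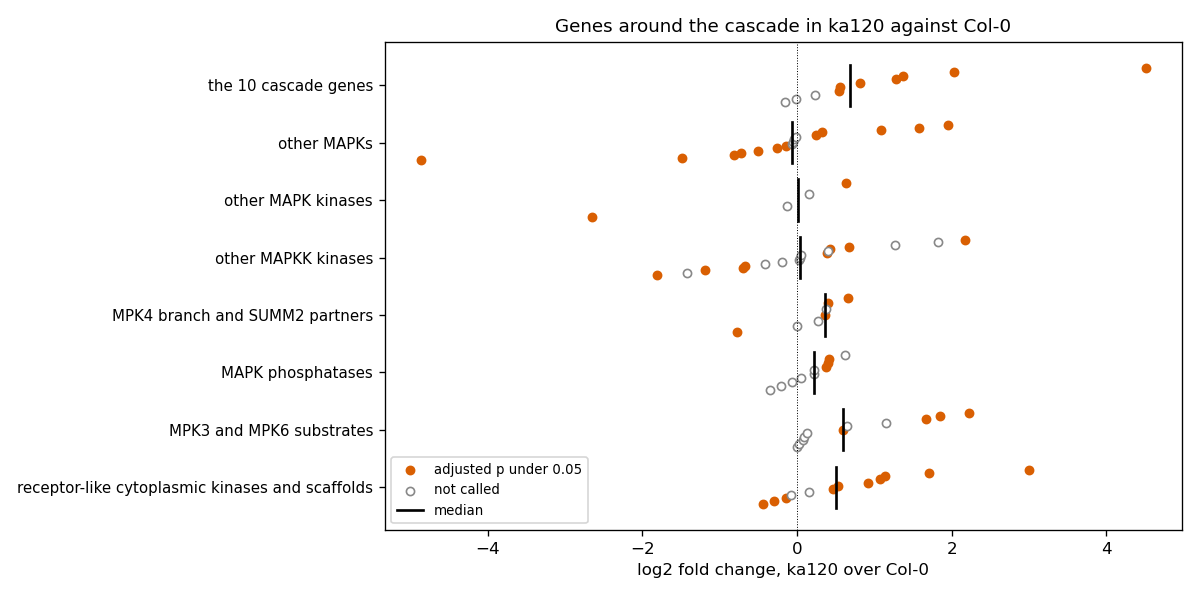
Log2 fold change in ka120 over Col-0 for the 10 cascade genes and 7 lists of related genes. Each point is a gene, filled where the adjusted p is under 0.05, and black lines are list medians; the median is 0.69 for the 10 genes and -0.06 for the other MAP kinases. The lowest point is MPK10, at 8, 3 and 0 counts in ka120 and 88, 61 and 92 counts in Col-0.

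The genes whose profiles over the 12 libraries were most like those of SUMM2 and of MPK11, the gene with the largest F statistic, were sought among 14879 genes with a mean of at least 5 CPM. Likeness was the root mean square distance between log2 CPM values centred on their mean. Nearest to MPK11 were NIMIN-2, an interactor of the salicylic acid receptor NPR1 (0.271), PCR2 (0.282) and the receptor-like protein gene RLP34 (0.283), against a median distance of 1.80 over the genes searched. Nearest to SUMM2 were AT1G62630 (0.0802), CYP71B7 (0.0934) and AT1G08800 (0.0977), against a median of 0.257. The nearest genes of a search lie below its median by construction, and SUMM2 itself varied little between genotypes (F statistic 1.13).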

How the data were processed

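HISAT2 2.0.4 and HTSeq 0.6.1p1 are named, with the TAIR10 build and no stated role, per the submitters' processing notes. No source used here gives the strand setting of the counting. The deposited table was taken to hold estimated counts (expected counts), which were already whole, because 45.7 to 48.1% of values between 4 and 40 were multiples of 4, against 25% in counts without such a step; the cause of that step is unknown. Reads from overlapping genes may not be separable: 22 exon bases of MKK1 lie in ABI1 on the opposite strand, and 633 of MPK4 in AT4G01380. Mean levels were 74.2 CPM in ka120 and 56.9 CPM in Col-0 for ABI1, and 0.0334 and 0.0741 CPM for AT4G01380. On the same strand, MKK4 shares 204 exon bases with AT1G51670, which had 1.569 CPM in ka120 and 2.185 CPM in Col-0. A deposited log2 table covers 22605 genes; its values equal log2(count + 0.5) minus a library-specific constant, and it served for 1 alternative.

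Counts were tested in R 4.3.3 with edgeR 4.0.16 (quasi-likelihood F test, TMM factors, default filter on low counts) in 1 model with a coefficient per genotype over 12 libraries, with 8 residual degrees of freedom; 22351 genes including all 10 members passed the filter. Approximate SEs were obtained by dividing the size of the log2 fold change by the root of its F statistic. DESeq2 1.42.0 and limma 3.58.1 served as alternatives. The procedure was tested on simulated counts with few changed genes, as many raised as lowered. That simulation does not probe the scaling between libraries where most genes change. Exon lengths, coordinates and upstream sequence came from RefSeq TAIR10.1, whose annotation may differ from the one counted. The members and lists were chosen with earlier results of these data known. Named list genes are those with the 2 smallest adjusted p per direction in ka120, with MEKK2, MEKK3 and relatives of SUMM2 in every case, and the 3 genes nearest in profile to SUMM2 and to the member with the largest F statistic. A gene that this rule covers is not reported here.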

Additional observations from a re-analysis of the deposited data

How the results depend on the processing

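The 7 calls in ka120 against Col-0 held under DESeq2, other size factors, total counts as the scaling, no filter, a fit to the 2 genotypes, a robust fit, limma on the deposited log2 values, the replicate block and each left-out library. For member calls and log2 fold changes, only the 6 libraries of the 2 compared genotypes were left out in turn. In ka120 pad4 against ka120 the count of 3 was 5 with DESeq2, 5 without TMM scaling and 5 in the replicate block fit, and 1 to 9 with a library left out. In ka120 ndr1 against ka120 the count of 0 was 1 with DESeq2 and 0 to 1 with a library left out. Between the double mutants the count of 0 was 1 with DESeq2, 1 with the replicate block and 0 to 1 with a library left out. The replicate numbers did not pair the libraries: 1 of 18 same-numbered pairs had deviations from the genotype means that correlated above 0.1 (range -0.0546 to 0.106). Within replicate numbers, by an exact sign-flip test that cannot go below 0.25, the ratio differences between ka120-carrying and Col-0 libraries were 0.480 (MKK1/MKK2), 0.678 (MKK4/MKK5), 1.03 (MPK3/MPK6) and -3.38 (MPK4/MPK11), each with p = 0.25. The replicate block also called MKK5 in ka120 against Col-0 (0.233, adjusted p = 0.0455), MPK11 (-1.38, adjusted p = 0.00617) and MPK4 (-0.316, adjusted p = 0.0367) in ka120 pad4 against ka120, and MKK5 between the double mutants (-0.423, adjusted p = 0.0375).

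Signs turned in values that were not called as reported. Without TMM scaling, which moved the median of all genes by 0.329, 0.246 and 0.285 in ka120, ka120 pad4 and ka120 ndr1 against Col-0, MPK6 stood at 0.311 (called), 0.0557 and 0.196 and SUMM2 at 0.175, 0.24 and 0.108 in these comparisons. With a library left out, the log2 fold change ran from -0.072 to 0.0739 for MPK6 in ka120 against Col-0, -0.0832 to 0.0558 for SUMM2 in ka120 pad4 against Col-0, -0.118 to 0.118 for SUMM2, -0.146 to 0.0104 for MEKK1 and -0.194 to 0.0207 for MKK4 in ka120 ndr1 against ka120, and -0.167 to 0.167 for MPK3 between the double mutants; the cause was not tested. Over all genes the count of calls ranged, across these settings, from 1885 to 4951 (4072 as reported) in ka120 pad4 against ka120, 136 to 2596 (1327) in ka120 ndr1 against ka120 and 76 to 1503 (535) between the double mutants. MPK11 rests on 33 to 45 counts per Col-0 library. The shares of the ka120 excess with a library left out were computed after seeing the data.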
